A study of Mus musculus with 12 samples.

Results

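Atf4 encodes a factor that drives transcription in the integrated stress response and Asns encodes one of its target enzymes. Both were measured on a metabolic gene panel in mice with or without sphingosine kinase 2 (SphK2). They are 2 of the 736 rows of the deposited table. Both were chosen by name, with their lower values in knockout than in wild-type mice on Western diet already known, so that comparison is given here as a description without a test.

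In the integrated stress response, kinases that sense amino acid shortage, endoplasmic reticulum stress or other insults phosphorylate the translation factor eIF2alpha. General protein synthesis then slows, while translation of the Atf4 message increases through short upstream reading frames. The ATF4 protein, a basic leucine zipper factor, binds composite C/EBP-ATF elements and activates genes of amino acid supply, among them Asns, which makes asparagine from aspartate with glutamine as nitrogen donor. The panel measured messages only, so neither translation nor protein was read.

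The study crossed genotype with diet in a mouse model of early metabolic dysfunction-associated steatohepatitis. There were 4 groups of 3 male mice on a C57BL6-NJ background: SphK2 knockout on Western diet with sugar water, wild type on Western diet with sugar water, SphK2 knockout on control diet with normal water, and wild type on control diet with normal water. The knockout was constitutive, so every cell type of the animal carried it, and ages ran between 217 and 259 days. The growth protocol gives 16 weeks of diet from an age of 12 to 18 weeks, whereas the per-sample labels give durations of 16 to 27 weeks. Those label durations rise week by week in sample order, whatever the group.

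The labels name no tissue. Of 19 hepatocyte markers, 14 were measured in usable rows, and their summed signal lay between 437746 and 540136 in the 12 libraries. Of 12 T and B cell markers 3 were measured, with Blk listed at the lowest value of 21 in all libraries, and of 10 myeloid markers 2 were measured, with sums of 42.0 to 56.6. The Sphk2 message itself was not analysed here, so the genotype labels were not checked. Recovered total counts were 1138914 in wild-type replicate 3 on Western diet and 1702816 to 1924846 in the others. Over 515 rows, a first principal component held 66.1% of the variance. On it knockout replicate 2 of each diet and wild-type replicate 2 on control diet lay apart from the other mice of their genotype. Earlier results of these data put the row names after Cat in doubt, so only the 111 rows from A2m to Cat, which include Atf4 and Asns, are described as genes.

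The stretches of 250 bases before the transcription start of both genes are shown because the known route from ATF4 to Asns runs through an element there. Capitals mark the match to the C/EBP-ATF core TGATGNAA, and the sequences are RefSeq's for GRCm38.p6, read 5′ to 3′ on the strand of the gene.
Asns: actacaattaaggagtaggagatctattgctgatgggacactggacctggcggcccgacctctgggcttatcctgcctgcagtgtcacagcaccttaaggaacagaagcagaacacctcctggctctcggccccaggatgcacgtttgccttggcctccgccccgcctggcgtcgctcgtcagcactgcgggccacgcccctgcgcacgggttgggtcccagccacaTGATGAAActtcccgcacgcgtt
Atf4: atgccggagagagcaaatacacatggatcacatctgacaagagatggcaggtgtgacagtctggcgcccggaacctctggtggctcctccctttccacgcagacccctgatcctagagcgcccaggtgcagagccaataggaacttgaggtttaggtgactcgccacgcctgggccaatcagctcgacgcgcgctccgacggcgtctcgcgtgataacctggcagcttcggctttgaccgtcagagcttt
The Asns gene lies at chr6:7675165-7693209 on the minus strand, and the printed stretch at chr6:7693210-7693459. It held 1 match, TGATGAAA, 23 to 16 bases before the start at chr6:7693225-7693232. The Atf4 gene lies at chr15:80255184-80257545 on the plus strand, and its stretch at chr15:80254934-80255183 held no match to TGATGNAA or to the related core TGATGNNAT on either strand. The 2 cores can overlap. Of 32851 mouse promoters of 300 bases, 3.97% held TGATGNAA, 4.05% held TGATGNNAT and 6.96% held either. Among the 116 promoters of the rows from A2m to Cat these shares were 4.31%, 2.59% and 6.03%.

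Atf4 was measured well above the lowest listed value in all 12 libraries, on between 894 and 1678 recovered counts each. The unit throughout is the deposited normalized signal. In knockout mice on Western diet the Atf4 signal was 1090.2, 1009 and 1151, against 1546, 1597 and 1693 in wild-type mice on Western diet. All 3 knockout values lay below all 3 wild-type values, with a gap of 395 between the groups. In knockout mice on control diet the signal was 1243, 1202 and 1222, against 1442, 992 and 1493 in wild-type mice on control diet. Wild-type replicate 2 on control diet had the lowest Atf4 of all 12 libraries, below every knockout mouse, and the other 2 wild-type mice lay above every knockout mouse. In whole-tissue RNA, fewer cells of a type and less message per cell cannot be told apart.

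**Figure D1:**
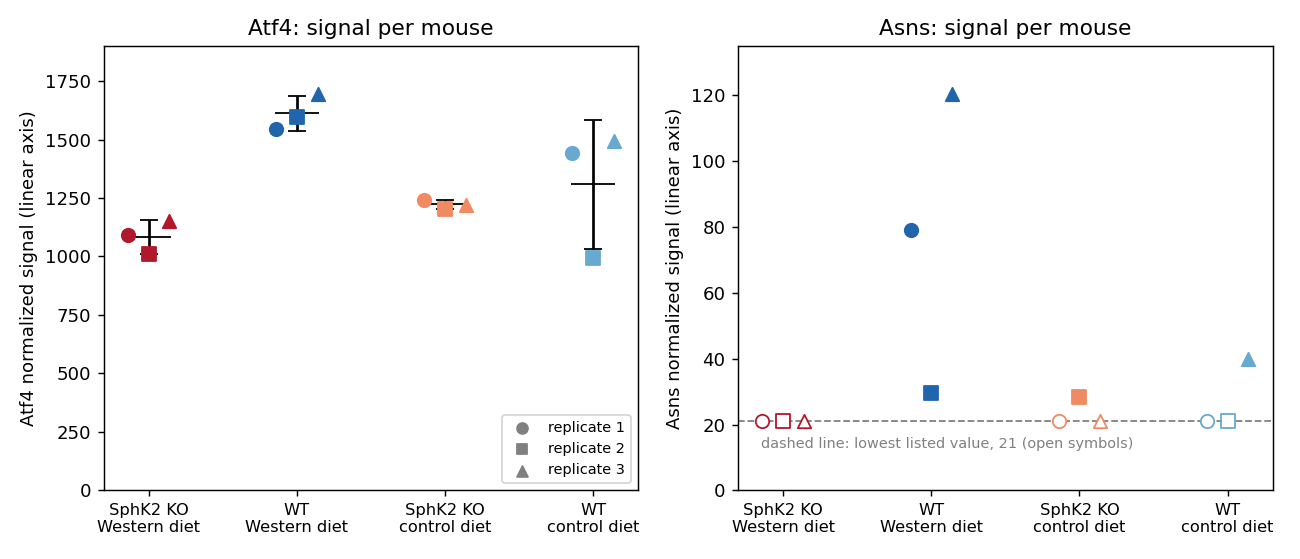
Atf4 (left) and Asns (right) normalized signal in each mouse of the 4 groups, on linear axes, with group means and SD as bars for Atf4. Atf4 lay at 1009 to 1151 in knockout mice on Western diet and at 1546 to 1693 in wild-type mice on Western diet; open Asns symbols stand at the lowest listed value of 21.

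By group mean, Atf4 was lowest in knockout mice on Western diet at 1083 ± 71.2 and highest in wild-type mice on Western diet at 1612 ± 74.9 (SD, n = 3 each). Between them lay knockout mice on control diet at 1222 ± 20.6 and wild-type mice on control diet at 1309 ± 276 (SD, n = 3 each). The middle pair overlapped. Knockout mice on Western diet lay below knockout mice on control diet without overlap, and the gap of 51.5 was within counting error: the 95% Poisson intervals of the nearest mice were 1086 to 1218 on Western diet and 1138 to 1269 on control diet. Wild-type mice on Western diet lay above wild-type mice on control diet with a gap of 52.9, and the nearest mice again had overlapping intervals, 1473 to 1622 on Western diet and 1420 to 1568 on control diet. These intervals cover counting error only.

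On Western diet, Atf4 in knockout mice was 0.672 times its level in wild-type mice, a log2 fold change of -0.57 ± 0.14 (SE of the limma fit over 12 libraries). limma called 1 of 736 rows there (0.136%). Groups did not overlap in 66 rows that were lower in knockout mice (8.97%) and in 107 that were higher (14.5%). With array weights limma called 44.3% of all rows by its default method and 28.5% by the gene-by-gene method. It called 2.85% of rows without wild-type replicate 2 on control diet and 2.04% without wild-type replicate 2 on Western diet. When the fit held just the 111 usable rows, it called 7.21% of them. Because the genes were chosen on this comparison, no calls of Atf4 or Asns are given and nothing is read from these shares.

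On Western diet, summed hepatocyte markers ranged over 437922 to 539407 in the knockout mice, against 482122 to 540136 in the wild-type mice. On control diet the range was 437746 to 495997 among knockouts, against 491336 to 524978 in wild type. The hepatocyte sums include Ass1, Asl, Arg1, Bhmt, Aadat and Acmsd, which also belong to the nitrogen enzymes described below. They are therefore not independent of those genes. Summed T and B cell markers ranged over 63.0 to 131.5 in knockouts on Western diet, against 63.0 to 66.8 in wild type on Western diet. On control diet those sums were 69.6 to 109 among knockouts, against 63.0 to 80.3 in wild type. The part of either in the Atf4 difference was not tested.

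On control diet, whose mice do not enter that difference, the Atf4 ratio of knockout to wild-type means was 0.934. The log2 fold change was -0.08 ± 0.14 (95% interval -0.39 to 0.24, adjusted p = 0.855 by limma with Benjamini-Hochberg adjustment). An exact two-sided permutation test gave p = 0.9, where 0.1 is the smallest that 3 against 3 mice allow. limma called 0 of 736 rows in this comparison (0.0%), with 35 at an unadjusted p under 0.05. The value rested on single wild-type mice: without replicate 2 it was -0.26 ± 0.06 (adjusted p = 0.39 by limma), without replicate 1 it was 0.0063 and without replicate 3 it was 0.031. Groups without overlap made up 2.85% of rows for lower and 3.8% for higher values in knockout mice, and neither Atf4 nor Asns was among them.

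The differences of Atf4 between diets had opposite signs in the 2 genotypes. In knockout mice the Western over control ratio of means was 0.886 (log2 fold change -0.18 ± 0.14), and in wild-type mice it was 1.23 (0.32 ± 0.14). Groups did not overlap in both genotypes. In knockout mice 3.67% of rows were lower on Western diet without overlap and 2.31% higher, and in wild-type mice 4.35% were higher and 6.66% lower. The interaction, which is the genotype effect on Western diet minus that on control diet, was -0.50 ± 0.19. Both comparisons share mice with the one used for the choice and are given without a p. Without wild-type replicate 2 on control diet, the diet difference in wild-type mice was 0.13 and the interaction -0.31. Knockout mice were 221, 217 and 252 days old on Western diet and 259, 253 and 250 days old on control diet, and wild-type mice were 226 to 232 days old on Western diet and 231 to 232 on control diet. With age as a covariate the diet difference of Atf4 was -0.058 ± 0.20 in knockout mice and 0.34 ± 0.14 in wild-type mice, and the genotype difference was -0.58 ± 0.14 on Western diet and -0.19 ± 0.20 on control diet.

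Averaged over both genotypes, Atf4 did not pass the test for diet. The log2 fold change of Western over control diet was 0.07 ± 0.10 (95% interval -0.15 to 0.29, adjusted p = 1 by limma). The exact two-sided permutation test, with diets exchanged within genotype in 400 arrangements, gave p = 0.71, the smallest possible being 0.005. limma called 0 of 736 rows for this average (0.0%), with 18 at an unadjusted p under 0.05. Without wild-type replicate 2 on control diet the Atf4 value was -0.021. Averaged over both diets, the genotype difference of Atf4 was -0.32 ± 0.10, given as a description.

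**Figure D2:**
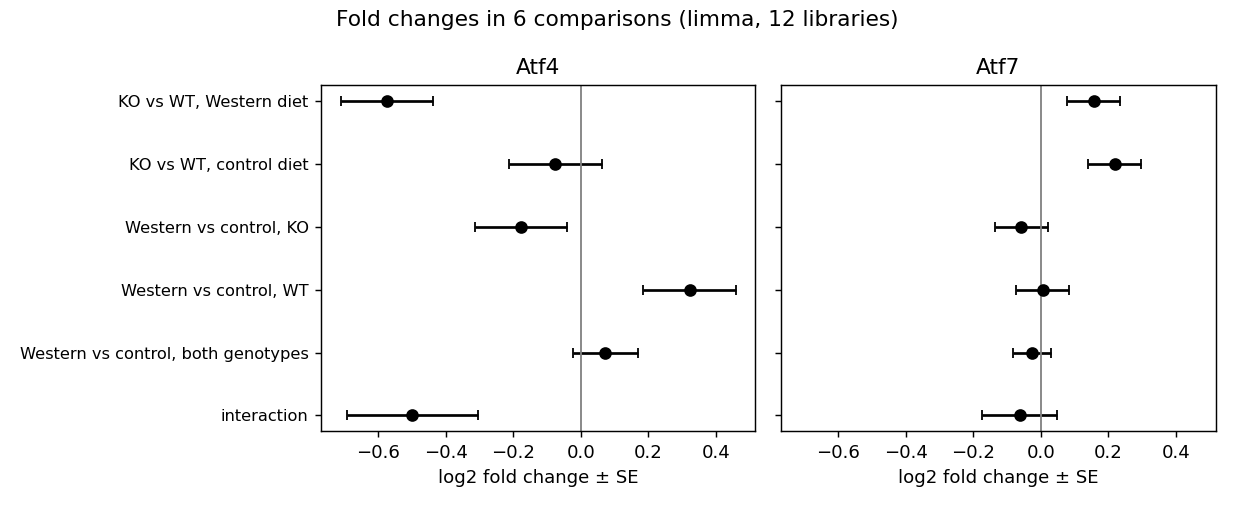
Log2 fold changes with SE (limma, 12 libraries) of Atf4 (left) and of Atf7 (right), on a shared axis, in 6 comparisons. Atf4 was -0.57 for knockout over wild type on Western diet and -0.08 on control diet, and Atf7 was 0.16 and 0.22.

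Asns lay at or near the lower limit of the table. It was above 21 in 5 of 12 libraries, in 1 of 6 knockout mice and in 4 of 6 wild-type mice. By diet it was detected in 3 of 6 mice on Western diet and in 2 of 6 on control diet. A listed 21 stands for any level below the lowest value above it in that library, so these values carry no order. That lowest value was 31.6 in wild-type replicate 3 on Western diet and 21.1 to 23.7 in the other libraries. Above a common limit of 32, Asns was detected in 3 of 12 libraries.

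In knockout mice on Western diet, Asns was listed at 21 in all 3 libraries, against 79.2, 29.6 and 120.3 in wild-type mice on Western diet. The 3 wild-type mice were all detected, from close to the limit in replicate 2 to the highest value of any library in replicate 3. In knockout mice on control diet Asns was 21, 28.4 and 21, against 21, 21 and 39.8 in wild-type mice on control diet. Those groups overlapped, with 1 mouse detected in each. The 5 detected values rested on 86, 31, 80, 31 and 42 recovered counts. The 95% Poisson interval of wild-type replicate 2 on Western diet was 20.1 to 42.0 in signal, and that of knockout replicate 2 on control diet was 19.3 to 40.4, so both reached down to the limit.

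Each undetected library was set to the lowest value above 21 listed in it. The Asns geometric means on Western diet were then 22.0 in knockout and 65.6 in wild-type mice, a 2.98-fold difference. It is a lower bound only with respect to the undetected values, and leaves out counting error and the spread between mice. The nearest pair of mice gave a ratio of 1.25 between wild type and the highest knockout bound. The fitted log2 fold change of -1.60 ± 0.46 depends on the listed 21 and is no bound. It was -2.16 without wild-type replicate 2 and -1.17 without wild-type replicate 3 on that diet.

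On control diet the Asns genotype difference was -0.16 ± 0.46 (95% interval -1.20 to 0.88, adjusted p = 0.935 by limma), and the exact two-sided permutation test gave p = 1.0, with 0.1 the smallest possible. Without wild-type replicate 3, the only detected wild-type mouse on control diet, it was 0.14. Averaged over genotypes, Western over control diet gave 0.58 ± 0.32 (95% interval -0.15 to 1.32, adjusted p = 1 by limma). The exact two-sided permutation test gave p = 0.2, with 0.005 the smallest possible. This average includes the Western-diet mice used for the choice. Every knockout mouse among them was listed at 21, so the wild-type values that led to the choice also raised the average. Its p-values are therefore not independent of the choice. Both intervals included no change as well as changes of more than 1 on the log2 scale, so neither result shows that Asns was unchanged. Differences of Asns between diets within a genotype, and the interaction, rest on groups mostly or wholly listed at 21, so the listed limit sets their size. The fitted values were -0.14 in knockout mice, 1.30 in wild-type mice and -1.44 for the interaction. When all values under 32 were set to 32, these became 0.0, 0.95 and -0.95, and the genotype difference on Western diet was -1.05.

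Asns was detected in all 4 libraries with the highest Atf4 and in 1 of the other 8. Those 4 included every wild-type mouse on Western diet, whose values led to the choice of both genes. The match was thus partly set in advance. Of those 4, wild-type replicate 2 on Western diet had an Asns signal of 29.6, below the common limit of 32. Over the 12 libraries the log2 values of Atf4 and Asns had r = 0.73 and rho = 0.78, and without the 2 libraries farthest from the Atf4 median r was 0.69. After subtraction of group means r was 0.30 and rho 0.22. The libraries share the groups, and 7 of the 12 Asns values are the listed limit, so these are descriptions.

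**Figure D3:**
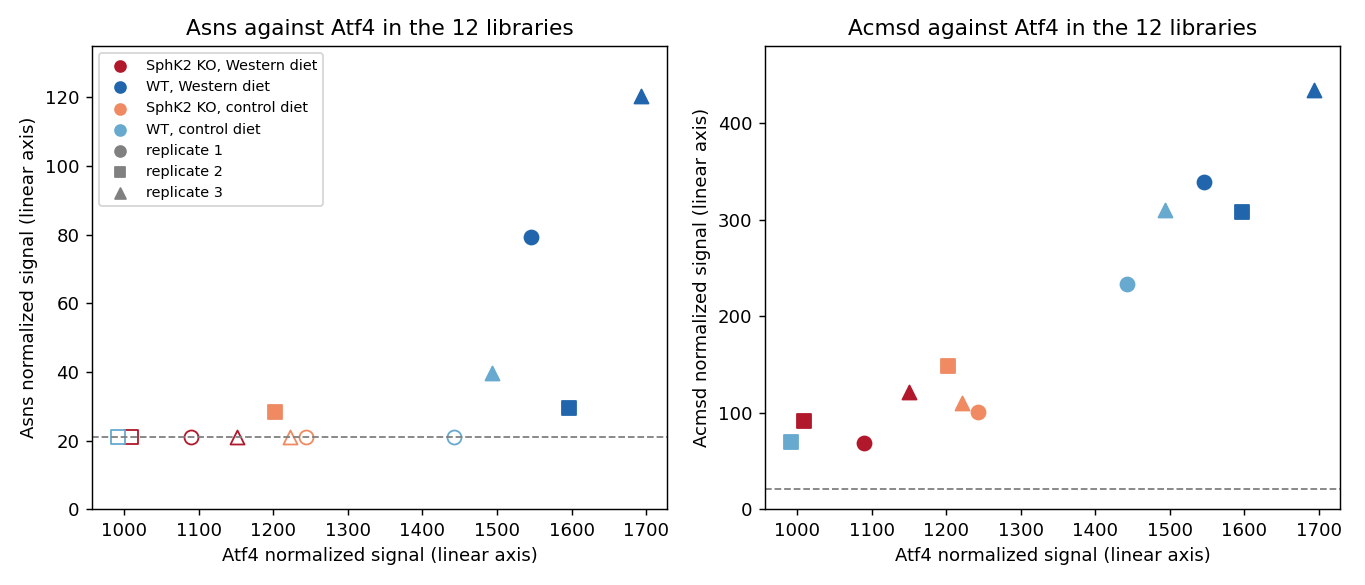
Asns (left) and Acmsd (right) normalized signal against Atf4 in each of the 12 libraries, linear axes, colours for the 4 groups and symbols for replicates, open where listed at 21. The 4 libraries with the highest Atf4, which included every wild-type mouse on Western diet, all had Asns above 21. Acmsd followed Atf4 with r = 0.96 on log2 values. Deviations from group means without wild-type replicate 2 on control diet had r = 0.38.

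Among 80 rows from A2m to Cat above 21 in all libraries, Acmsd was most like Atf4, with r = 0.96 over 12 libraries against a median r of -0.01. Acmsd encodes a decarboxylase of the kynurenine pathway of tryptophan breakdown. Its signal was 68.3, 91.4 and 121 in knockout mice and 339, 308 and 435 in wild-type mice on Western diet. On control diet it was 101, 149 and 111 in knockout mice and 233, 69.2 and 310 in wild-type mice. As for Atf4, wild-type replicate 2 on control diet was low, and deviations from group means had r = 0.89 with that mouse and 0.38 without it. Next came Apom, a carrier of sphingosine-1-phosphate (r = 0.88), the alcohol dehydrogenase Adh4 (0.81), the histidine-degrading enzyme Amdhd1 (0.80) and Ass1 (0.74). For these 4 the deviations from group means had r = 0.61, 0.56, 0.59 and 0.47 in the same order, and without wild-type replicate 2 on control diet -0.03, 0.12, -0.14 and -0.48. The lowest were the apolipoprotein Apoe (-0.93), the acyl-CoA thioesterase Acot12 (-0.86) and the ketone body enzyme Acat1 (-0.82). Their deviations without that mouse had r = -0.63, -0.70 and -0.58. For Asns, ranked by rho among 95 rows, Asl (0.89), Bad (0.87) and Acmsd (0.87) led, and Atf4 was at rank 8. Atf4 had r = -0.60 with the first principal component, whose part in the genotype difference was not tested, and -0.08 with age.

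Of the ATF, CREB and C/EBP family, Atf7 was the other member measured in usable rows. Its signal was 192, 216 and 194 in knockout mice and 167, 171 and 203 in wild-type mice on Western diet. On control diet it was 217, 207 and 201 in knockout mice and 187, 172 and 177 in wild-type mice. Values overlapped on Western diet (log2 fold change 0.16 ± 0.08) and did not on control diet (0.22 ± 0.08, adjusted p = 0.65 by limma), where 3.8% of rows were higher in knockout mice without overlap. With each library centred on its median the values were -0.01 and 0.05, since library medians were 0.16 and 0.17 higher on the log2 scale in knockout mice on Western and control diet. The Atf4 values with that centring were -0.74 and -0.24.

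Of the other lists around Atf4, Asns was the only amino acid synthesis target in usable rows. Upstream kinases, transporters, stress targets and tRNA synthetases had none. A further 6 synthesis targets, 4 transporters and 2 stress targets were named in rows after Cat, where none was called, and they are not described.

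Among 11 other amino acid and nitrogen enzymes, none passed the test in any of the 7 contrasts. limma called 0.136% of all rows there for genotype on Western diet and 0.0% for the others. Leaving out 1 library gave 0 to 1 of these enzymes for genotype on Western diet, where 0 to 21 of all 736 rows were called. With array weights 8 were called for genotype on Western diet and 6 on control diet. The same weighted fits called 44.3% and 28.5% of all rows on Western diet and 26.5% and 22.3% on control diet, by the default and the gene-by-gene method. On Western diet 10 of 11 fold changes were below 0, with a median of -0.41 against 0.03 for all rows. On control diet all 11 were below 0, with a median of -0.53 against 0.02 for all rows. Ass1, the urea cycle enzyme that forms argininosuccinate from citrulline and aspartate, had -0.80 ± 0.25 on Western and -0.61 ± 0.25 on control diet. Asl, which cleaves argininosuccinate, had -0.99 ± 0.36 and -0.66 ± 0.36. Arg1, which makes urea, had -0.64 ± 0.27 and -0.55 ± 0.27. Ass1, Asl and Arg1 were all higher in knockout replicate 2 of each diet than in the other knockout mice. Ass1 was 25649 in that replicate on Western and 23652 on control diet, against 15462 to 17199 in the other knockouts. Wild-type mice had Ass1 of 33085 to 35492 on Western and 20159 to 36167 on control diet. Bhmt2, a homocysteine methyltransferase, had -0.41 ± 0.14 and -0.30 ± 0.14. Acmsd had -1.96 ± 0.50 and -0.53 ± 0.50, and the mitochondrial aminotransferase Agxt2 had 0.52 ± 0.17 and -0.01 ± 0.17.

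The autophagy list had 3 usable members and none was called in any of the 7 contrasts, where limma called 0.136% of all rows for genotype on Western diet and 0.0% for the others. On Western diet Atg2b was called with array weights, over the 111 usable rows, and without wild-type replicate 2 of either diet. Bcl2l1 was called with both kinds of array weights on control diet and with the default weights on Western diet. The shares of all rows called under these settings are those given above. Atg2b, which moves lipids into growing autophagosomes, had -0.36 ± 0.07 on Western and -0.06 ± 0.07 on control diet. Bcl2l1, an inhibitor of cell death, had 0.25 ± 0.21 and 0.33 ± 0.21, and Atg101, a subunit of the ULK complex, had -0.12 ± 0.12 and 0.08 ± 0.12.

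**Figure D4:**
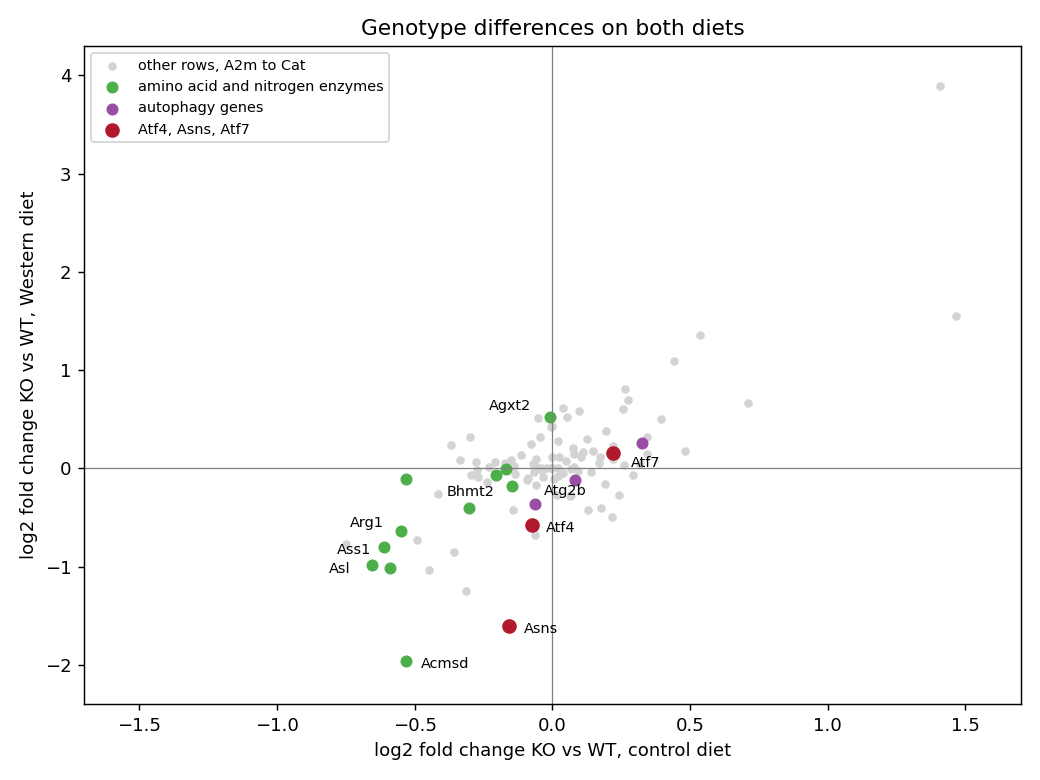
Log2 fold change of knockout over wild type on control diet (x) and on Western diet (y) for the 111 rows from A2m to Cat, with Atf4, Asns and Atf7 in red, amino acid and nitrogen enzymes in green and autophagy genes in purple. Atf4 (-0.08, -0.57) and Asns (-0.16, -1.60) lay near 0 on the control-diet axis and below 0 on the Western-diet axis.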

How the data were processed

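Per the labels' protocols, Trizol-extracted total RNA was read with target-specific barcodes on a Nanostring metabolic panel. The deposited values are a normalized signal for 736 rows in 12 libraries; how it was scaled, and with which software and reference genes, was not given in the sources used here. Between 21 and 3000, each library's values were multiples of a single step (to within 0.1 of a whole number), from which counts were recovered. Lower values are listed at 21, so no count model was used.

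Values were tested as log2(value + 1) with limma 3.58.1 in R 4.3.3: 4 group means, 8 residual degrees of freedom, 7 contrasts, Benjamini-Hochberg adjustment over 736 rows, threshold 0.05. The fit was tested on simulated data. The limma p-values set a difference against a spread between mice that is pooled over the 4 groups of 3. The permutation p-values rest on arrangements of the mice. Replicate numbers follow sample order and pair nothing.

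The members, lists and named-gene rule were chosen with earlier results of these data known. The rule named Atf4 and Asns, every usable member of the short lists, up to 6 members of the autophagy and nitrogen lists by smallest limma p on Western diet, and the rows most like Atf4 (5 highest and 3 lowest by r) and Asns (3 by rho). Alternatives changed scaling, low values, pseudocount, variance model, weights, age, samples and rows. limma's default array weights, listed as an alternative beforehand, stopped without convergence. A gene-by-gene weight method was added after the counts under the default had been seen, and both are reported. Motifs were searched in RefSeq promoters of GRCm38.p6.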

Additional observations from a re-analysis of the deposited data

Results flagged for a closer look

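Diet differences of Atf4 had opposite signs in the genotypes. All knockout mice on Western diet lay below all knockout mice on control diet. All wild-type mice on Western diet lay above all wild-type mice on control diet. Of all rows, 3.67% were lower without overlap in knockout mice and 4.35% higher in wild-type mice. The nearest mice, 51.5 and 52.9 apart, had overlapping counting intervals. With age as a covariate the diet difference was -0.058 ± 0.20 in knockout mice and 0.34 ± 0.14 in wild-type mice. The interaction was -0.50 ± 0.19 on the log2 scale, and -0.31 without wild-type replicate 2 on control diet. limma called 0 of 736 rows for the interaction, with 44 at an unadjusted p under 0.05. The value shares mice with the comparison on which Atf4 was chosen.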

How the results depend on the processing

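No paired analysis was possible because the labels carry no replicate numbers shared between groups. A tested comparison counted as the same if it kept direction and side of the threshold. Others did if they moved by less than the spread between replicates. For the 14 fold changes of Atf4 and Asns, this held for 148 of 148 values under alternatives that leave out no library. It also held for 162 of 168 that leave out 1 library. The exceptions were Atf4 on control diet without wild-type replicate 1 (0.0063) or 3 (0.031), Asns on control diet without wild-type replicate 3 (0.14), and, without wild-type replicate 2 on control diet, Atf4 for averaged diet (-0.021), diet in wild type (0.13) and interaction (-0.31). Age as a covariate moved Atf4 for diet in knockout to -0.058 and for genotype on control diet to -0.19, and Asns for diet in knockout to 0.02. That change of sign for Asns counted as no exception, because only the size of the move was judged there. Many fold changes could not move: some alternatives alter only the rows or the variance model, and some left-out libraries lie outside the comparison. The totals are therefore no measure of robustness.

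Leaving out 1 library gave Atf4 ranges of -0.62 to -0.52 (genotype, Western diet), -0.26 to 0.03 (genotype, control diet), -0.22 to -0.13 (diet, knockout), 0.13 to 0.43 (diet, wild type), -0.42 to -0.27 (averaged genotype), -0.02 to 0.13 (averaged diet) and -0.61 to -0.31 (interaction). For Asns they were -2.16 to -1.17, -0.31 to 0.14, -0.21 to 0.0, 0.87 to 1.87, -1.16 to -0.66, 0.37 to 0.86 and -2.01 to -1.01 in the same order.

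Counts of called rows depended strongly on weights. limma's default array weights, which stopped with a convergence warning, called 326 rows for genotype on Western diet, 195 on control diet, 26 for diet in knockout, 1 in wild type, 371 for averaged genotype, 3 for averaged diet and 19 for the interaction. The gene-by-gene method, chosen after these counts had been seen, called 210, 164, 0, 1, 314, 0 and 0. Without weights the counts were 1 for genotype on Western diet and 0 elsewhere. Neither method called Atf4 or Asns for genotype on control diet or averaged diet. Genotype on Western diet and averaged genotype are no tests for these genes, so calls of them there are not given. Under weights 8 of the 11 nitrogen enzymes were called on Western and 6 on control diet by either method. Genotype on Western diet called 0 rows with either centring, with the low-value filter, with age or with only the 2 groups, and 8 of 111 with rows from A2m to Cat alone; age gave 2 for diet in knockout. Leaving out 1 library gave 0 to 21 rows for genotype on Western diet, 0 to 3 on control diet, 0 to 1 for diet in wild type, 0 to 132 for averaged genotype and 0 to 1 for the interaction. The causes were not tested. Asns was listed at 21 in 7 of 12 libraries, with 1924846 counts in the deepest of these, and was highest in the library with the fewest counts, 1138914.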
